A study of Homo sapiens and Mus musculus with 22 samples.

Results

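The 45 genes of DNA replication and S phase were followed in 2 cell lines, U2OS from a human osteosarcoma and L929 from mouse fibroblasts. They were taken by gene symbol, ignoring case, from every gene table of the series, and a locus that joins several symbols counted when it held one of them. All 45 were found in each of the 3 tables, of 22680, 21987 and 22731 genes. Mouse genes are written here with the human symbol.

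Before a cell copies its genome, ORC, CDC6 and CDT1 load the MCM helicase onto origins, and CDC45 and GINS then turn it into a running helicase. PCNA, the sliding clamp, is placed by the RFC loader and holds the polymerases, RPA covers single strands, and FEN1 and LIG1 join the Okazaki fragments. Ribonucleotide reductase, TYMS and TK1 supply nucleotides, CHAF1A and CHAF1B place histones behind the fork, and UHRF1 brings the maintenance DNA methyltransferase to it. Most of these genes are transcribed from late G1 onward by E2F factors, which the RB proteins hold back until cyclin-dependent kinases, including CDK2 with cyclin E, phosphorylate them.

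RNA was sequenced from poly(A)-selected libraries in 14 samples of the 22 in the series; the other 8, chromatin immunoprecipitation samples and inputs, were not analysed here. The first set was U2OS without BIX: SETDB1 KO1, SETDB1 KO2 and WT, 2 libraries each. SETDB1 is an H3K9 methyltransferase, and whether KO1 and KO2 are clones or guides was not given in the sources used here. A second set was U2OS with ATG5 KD or vector, each with BIX or mock. ATG5 is a protein of autophagosome formation, and these 4 values each stand for a pool of replicates whose separate values were not used here. The third set was L929 with cGAS KO or cGAS WT, each with BIX or mock, 1 library each; cGAS is a sensor of cytosolic DNA. BIX is BIX-01294, which inhibits EHMT1 and EHMT2, methyltransferases of histone H3 lysine 9, given at 10 µM for 12 h. One treatment note in the labels says that all cells received BIX, while sample names and characteristics say mock for some, and these were used. The labels do not say that replicates came from separate cultures, so p-values in the SETDB1 set measure the spread between these libraries. For BIX they measure the spread between the 2 genotypes of a line, which are not replicates.

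The mRNA of the targeted genes was lower in SETDB1 KO and in mock ATG5 KD and cGAS KO cells, but higher than in the controls in ATG5 KD and cGAS KO cells with BIX. SETDB1 had 5.90, 7.03, 6.89 and 7.35 FPKM (fragments per kilobase of transcript, scaled to mapped fragments) in the KO libraries, against 9.98 and 9.32 FPKM in WT. ATG5 had 13.4 FPKM in ATG5 KD cells with BIX, against 12.3 FPKM in vector cells with BIX, and 10.1 FPKM in mock ATG5 KD cells, against 11.3 FPKM in mock vector cells. Mb21d1, the mouse cGAS gene, had 4.41 FPKM in cGAS KO cells with BIX, against 3.47 FPKM in cGAS WT cells with BIX, and 1.19 FPKM in mock cGAS KO cells, against 2.82 FPKM in mock cGAS WT cells. An mRNA level does not show whether the protein is lost. Of the mesenchymal markers, 5 of 6 were at 1 FPKM or more in U2OS, and 6 of 7 fibroblast markers in L929, where THY1 was at 0. Leukocyte markers summed to at most 0.833 FPKM. Keratins and other epithelial markers summed to 617 to 1180 FPKM in U2OS, and their part in the results was not tested. Read totals were not given in the sources used here; steps in low FPKM values put cGAS WT with BIX at 0.747 of the reads of mock cGAS WT.

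With BIX, most of the replication genes fell. In a limma fit of the 4 BIX over mock log2 ratios, with a coefficient for each cell line and Benjamini-Hochberg adjustment over 11781 genes, 37 of 45 fell and 1, ORC6, rose in the mean of both lines (adjusted p below 0.05). Over all genes 28.3% fell and 26.8% rose by the same rule. The median of the 45 was -0.53 log2 units, against -0.01 for all genes. On direction alone, 28 of 45 were lower with BIX in 4 of 4 backgrounds, where 23.8% of all genes were, and 1 was higher in 4 of 4, where 22.6% of all genes were. That 1 was RPA3, the smallest RPA subunit, whose log2 ratios were 0.25, 0.00, 0.24 and 0.02 in ATG5 KD, vector, cGAS KO and cGAS WT cells. In bulk RNA, fewer cells in S phase and less RNA per cell cannot be told apart.

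The calls rest on the U2OS pair for their spread. Between the 2 L929 backgrounds the BIX ratios of all genes differed with an SD of 0.478 log2 units, against 0.242 between the 2 U2OS backgrounds. With ATG5 KD or vector left out, only the L929 pair was left to set the spread, and the calls in all 4 contrasts were lost. With weights by cell line, a choice made after seeing this spread, 36 of 45 fell and 1 rose in the mean. The weighted fit called 6532 of 11781 genes in either direction.

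**Figure D1:**
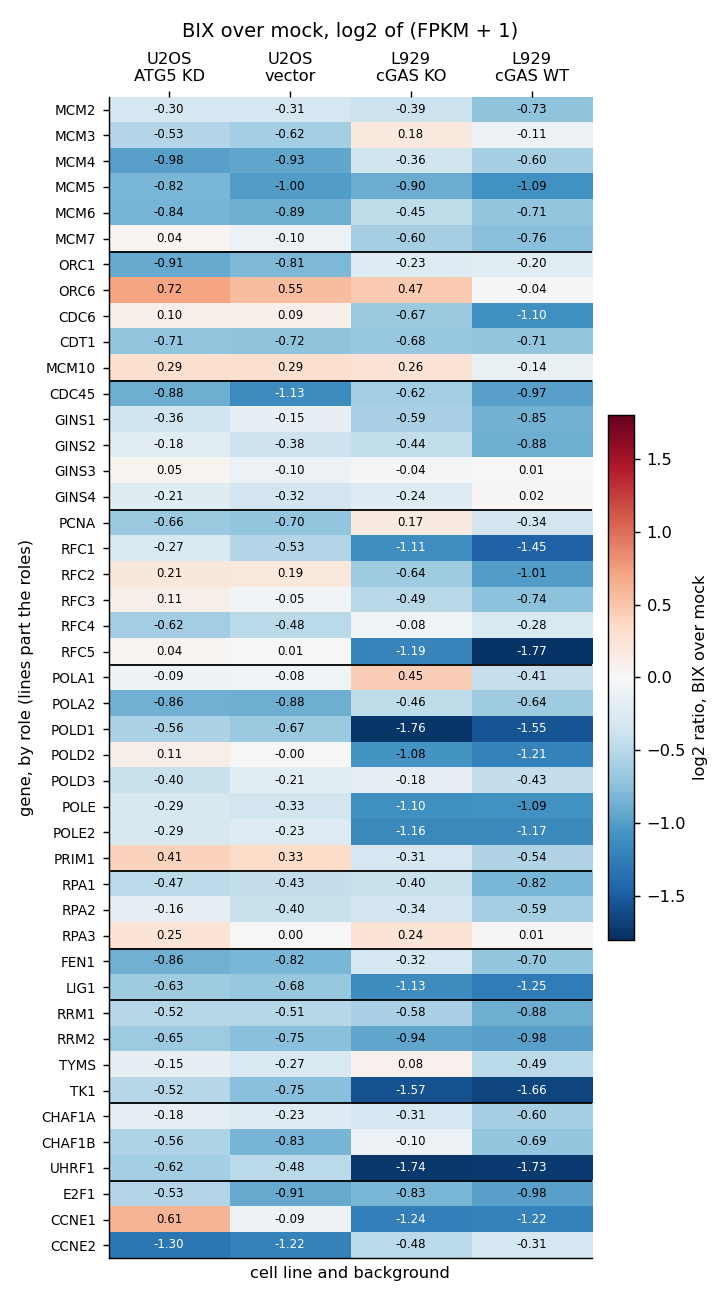
Log2 ratio of FPKM + 1, BIX over mock, for each of the 45 genes (rows, parted by role) in the 4 backgrounds (columns). Each cell is 1 ratio, of pooled replicates in U2OS and of single libraries in L929, blue where BIX is lower. POLD1 in L929 is among the darkest rows, at -1.76 in cGAS KO and -1.55 in cGAS WT, and ORC6 is red in 3 of 4 columns. In U2OS, MCM10, POLA1, POLA2, POLD1, PRIM1 and CHAF1A are loci joined with another gene.

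The promoters of the genes share sequence features that the choice by symbol did not use. In RefSeq (GRCh38.p14), 38 of 45 genes had an entry, and the 150 bases before the start were searched on both strands. The E2F core, read as TTCCCGC, as the word TTCGCGC, as the word TTGCCGC or as the word TTGGCGC, stood in 18 of 38 (47.4%), against 7.49% of 27305 promoters. These words can overlap on opposite strands, and each is counted. CCAAT stood in 20 (52.6%, against 24.4%), GGGCGG in 26 (68.4%, against 36.7%) and TTTGAA in 0, against 7.44%. The 18 genes with an E2F core had a median BIX log2 change of -0.43 in the mean of both lines, against -0.55 for the 20 without. The order differed by line, with -0.57 against -0.81 in L929 and -0.55 against -0.28 in U2OS. Only human promoters were searched, so the mouse genes of L929 are sorted here by the human sequence. In U2OS both groups hold joined loci, and PRIM1 with NACA is in the group with the core. Other forms of the E2F site were not searched, so genes counted as without the core may hold such a form. A match is a description and not a bound site.

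Below are 4 human promoters with the core in capitals, from genes that fell in both lines, and 2 without it, from TK1, which had the third-largest fall, and from ORC6, which rose. UHRF1 is at chr19:4909351-4909500, + strand, E2F1 at chr20:33686386-33686535, - strand, CDT1 at chr16:88803639-88803788, + strand, LIG1 at chr19:48170345-48170494, - strand, TK1 at chr17:78187205-78187354, - strand and ORC6 at chr16:46689509-46689658, + strand.
UHRF1: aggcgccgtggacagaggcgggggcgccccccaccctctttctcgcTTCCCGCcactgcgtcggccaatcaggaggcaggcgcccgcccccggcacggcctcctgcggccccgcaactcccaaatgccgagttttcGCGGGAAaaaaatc
E2F1: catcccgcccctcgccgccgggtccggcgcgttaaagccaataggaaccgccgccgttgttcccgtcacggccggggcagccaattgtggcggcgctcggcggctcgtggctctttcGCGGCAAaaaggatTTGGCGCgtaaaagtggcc
CDT1: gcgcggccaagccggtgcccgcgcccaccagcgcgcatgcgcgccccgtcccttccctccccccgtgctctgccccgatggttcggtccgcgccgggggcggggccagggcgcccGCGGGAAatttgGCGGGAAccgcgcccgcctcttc
LIG1: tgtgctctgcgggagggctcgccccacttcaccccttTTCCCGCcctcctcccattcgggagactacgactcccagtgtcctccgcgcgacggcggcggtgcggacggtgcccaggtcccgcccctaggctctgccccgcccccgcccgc
TK1: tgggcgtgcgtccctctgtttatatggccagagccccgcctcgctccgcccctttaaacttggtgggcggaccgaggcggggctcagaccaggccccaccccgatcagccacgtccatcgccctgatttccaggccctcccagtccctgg
ORC6: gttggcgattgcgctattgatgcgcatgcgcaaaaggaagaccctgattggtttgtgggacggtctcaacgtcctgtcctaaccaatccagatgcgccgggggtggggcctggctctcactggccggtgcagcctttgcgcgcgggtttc

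All 6 MCM helicase subunits fell in the mean of both lines, with a median of -0.57 log2 units. MCM5 had 35.9, 33.2, 43.7 and 22.9 FPKM with BIX in ATG5 KD, vector, cGAS KO and cGAS WT cells, against 64.4, 67.6, 82.1 and 49.9 FPKM in mock, and the backgrounds keep this order in the sentences that follow. Its BIX and mock values did not overlap, and the log2 change was -0.95 (SE 0.073, adjusted p = 0.00271). For BIX, here and below, overlap compares the BIX values with the mock values across both lines, without pairing by background. How often all genes separate in this way with BIX is not given here, so overlap and separation are a description only. MCM2 had 36.1, 39.3, 56.0 and 31.5 FPKM with BIX, against 44.5, 48.9, 73.8 and 52.8 FPKM in mock. The MCM2 ranges overlapped, BIX was lower in each background, and the change was -0.43 (SE 0.081, adjusted p = 0.0119). MCM4 and MCM6 fell by 0.72 each, MCM7 by 0.35 and MCM3 by 0.27. In U2OS, MCM7 was near its mock value, with log2 ratios of 0.04 in ATG5 KD and -0.10 in vector. MCM3 was higher with BIX than in mock in cGAS KO, 134.6 against 119 FPKM, and lower in the other 3 backgrounds.

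Among the licensing and loading genes, 3 of 5 fell and 1 rose. CDT1, which brings MCM to origins, had 22.5, 22.2, 45.3 and 24.0 FPKM with BIX, against 37.4, 37.3, 73.4 and 39.9 FPKM in mock. The cGAS KO value with BIX lay above 3 mock values, while the 4 log2 ratios lay between -0.72 and -0.68, with a mean of -0.71 (SE 0.061, adjusted p = 0.00291). CDC6, the ATPase that loads MCM with ORC, had 50.9, 45.9, 7.53 and 4.80 FPKM with BIX, against 47.4, 42.9, 12.6 and 11.5 FPKM in mock. It was slightly higher with BIX in both U2OS backgrounds and lower in both L929 backgrounds, with a mean of -0.40 (SE 0.096, adjusted p = 0.0243). ORC1, the largest ORC subunit, fell by 0.54. ORC6, the smallest, had 40.1, 33.9, 57.4 and 28.2 FPKM with BIX, against 24.0, 22.8, 41.3 and 29.0 FPKM in mock. It was higher in 3 of 4 backgrounds and rose by 0.42 (SE 0.106, adjusted p = 0.0264). MCM10 changed by 0.17 (adjusted p = 0.16), and in U2OS its values belong to a locus shared with OPTN.

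CDC45 fell most among the helicase activators. It had 24.3, 19.6, 17.9 and 14.1 FPKM with BIX, against 45.5, 44.2, 28.1 and 28.5 FPKM in mock. BIX and mock did not overlap, and the change was -0.90 (SE 0.095, adjusted p = 0.00359). GINS1 and GINS2 fell by 0.49 and 0.47. GINS4, at -0.19 (adjusted p = 0.106), and GINS3, at -0.02 (adjusted p = 0.824), did not pass. GINS3 had 19.1, 17.6, 10.6 and 8.25 FPKM with BIX, against 18.5, 19.0, 11.0 and 8.17 FPKM in mock, differences of either sign.

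The clamp PCNA and all 5 RFC subunits fell in the mean, but by unequal routes. PCNA had 145, 144, 366 and 195 FPKM with BIX, against 230.3, 235, 325 and 247 FPKM in mock. It was lower in 3 backgrounds and higher in cGAS KO, with a mean of -0.38 (SE 0.097, adjusted p = 0.0277). RFC1, the large loader subunit, had 18.5, 15.8, 12.4 and 7.44 FPKM with BIX, against 22.6, 23.3, 28.0 and 22.1 FPKM in mock. Its groups did not overlap, and it fell by 0.84 (SE 0.096, adjusted p = 0.00408). RFC5 fell by 0.73, RFC4 by 0.37, RFC2 by 0.31 and RFC3 by 0.30. In U2OS, RFC2 was higher with BIX, with log2 ratios of 0.21 in ATG5 KD and 0.19 in vector. RFC5 was level there, at 0.04 and 0.01, and RFC3 had either sign, at 0.11 and -0.05. RFC2, RFC3 and RFC5 were each lower in both L929 backgrounds.

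Of 8 polymerase and primase genes, 6 fell. POLD1, the catalytic subunit of polymerase delta, had 23.7, 23.2, 8.22 and 7.06 FPKM with BIX, against 35.6, 37.5, 30.2 and 22.6 FPKM in mock. BIX was lower in each background, most in L929, and the mean change was -1.14 (SE 0.075, adjusted p = 0.00267). In U2OS the POLD1 value is a locus joined with SPIB, which alone stood at 0.492 to 0.711 FPKM in the SETDB1 set. POLA2 fell by 0.71, POLE2 by 0.71, POLE by 0.70, POLD2 by 0.55 and POLD3 by 0.30. In U2OS POLA2 is read with CDC42EP2, which alone had 6.56 to 7.84 FPKM in the SETDB1 set. POLA1, the catalytic subunit of polymerase alpha, changed by -0.03 (adjusted p = 0.869), with 24.3 FPKM with BIX against 17.5 FPKM in mock in cGAS KO and 7.65 against 10.5 FPKM in cGAS WT. PRIM1 cannot be read in these U2OS values, since its locus joins NACA and stood at 613 to 932 FPKM, while PRIM1 alone had 47.0 to 56.6 FPKM and NACA 481 to 591 FPKM in the SETDB1 set. In L929, where PRIM1 is separate, it had 47.6 and 29.9 FPKM with BIX, against 59.2 and 43.9 FPKM in mock.

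RPA1 and RPA2, the subunits that carry most of the binding to single strands, fell by 0.53 and 0.37, and RPA3 did not pass at 0.13 (adjusted p = 0.24). FEN1 fell by 0.68. LIG1, the ligase that seals the lagging strand, had 25.4, 25.8, 28.9 and 15.9 FPKM with BIX, against 39.9, 42.0, 64.4 and 39.2 FPKM in mock. No BIX value reached a mock value, and the fall was 0.92 (SE 0.064, adjusted p = 0.00267).

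Nucleotide supply was lower for 3 of 4 genes. RRM2, the S-phase subunit of ribonucleotide reductase, had 124, 93.2, 116 and 149.7 FPKM with BIX, against 196, 157, 224 and 296 FPKM in mock. The groups did not overlap, and it fell by 0.83 (SE 0.055, adjusted p = 0.00267). TK1, the S-phase thymidine kinase, had 106.6, 70.6, 27.9 and 22.9 FPKM with BIX, against 153, 119, 84.9 and 74.3 FPKM in mock. It was lower in each background, with log2 ratios of -1.57 and -1.66 in L929, and fell by 1.12 (SE 0.069, adjusted p = 0.00267). RRM1 fell by 0.62. TYMS, thymidylate synthase, had 203, 181, 22.9 and 15.7 FPKM with BIX, against 225, 218, 21.6 and 22.4 FPKM in mock. It was lower in 3 backgrounds and did not pass, at -0.21 (SE 0.111, adjusted p = 0.176).

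UHRF1 had the largest fall of the 45. It had 20.2, 21.7, 29.1 and 21.6 FPKM with BIX, against 31.6, 30.7, 99.6 and 73.8 FPKM in mock. The 2 L929 mock values were the high ones, BIX brought all 4 backgrounds to a narrow range below every mock value, and the change was -1.14 (SE 0.064, adjusted p = 0.00267). CHAF1A and CHAF1B, subunits of the CAF-1 histone chaperone, fell by 0.33 and 0.55. E2F1, the activating E2F factor of this switch, had 16.6, 13.9, 26.2 and 15.3 FPKM with BIX, against 24.3, 27.1, 47.3 and 31.2 FPKM in mock. It was lower in each background and fell by 0.81 (SE 0.093, adjusted p = 0.00409).

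The cyclin E genes differed in where they were lowest against mock: CCNE1 in L929, CCNE2 in U2OS. CCNE1 had 70.0, 51.5, 10.6 and 16.3 FPKM with BIX, against 45.5, 55.0, 26.5 and 39.3 FPKM in mock. It was higher in ATG5 KD, near its mock value in vector and lower in both L929 backgrounds, and its mean change was -0.49 (SE 0.13, adjusted p = 0.0323). CCNE2 had 2.42, 2.97, 4.41 and 7.30 FPKM with BIX, against 7.43, 8.27, 6.57 and 9.31 FPKM in mock. BIX was lower in each background, most in U2OS, with a mean of -0.83 (SE 0.077, adjusted p = 0.00319).

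**Figure D2:**
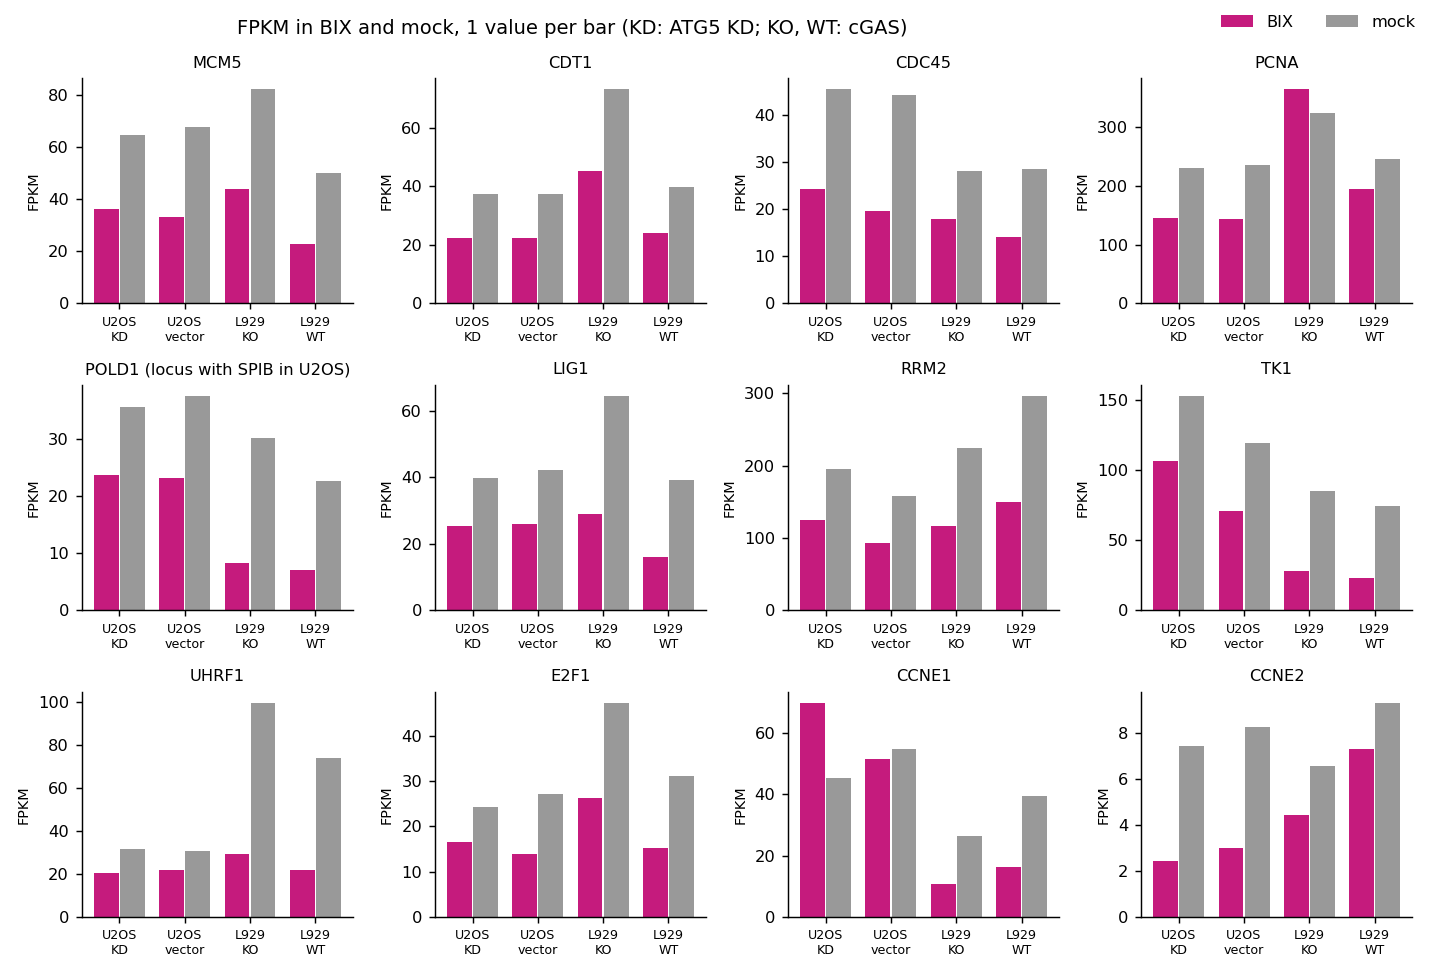
FPKM (vertical axes, each from 0) of 12 of the genes with BIX (pink, left bars) and in mock (grey, right bars), 1 value per bar with no error, in U2OS ATG5 KD and vector and L929 cGAS KO and cGAS WT cells. In 10 panels the pink bar is shorter in every background; PCNA in cGAS KO (366 against 325 FPKM) and CCNE1 in ATG5 KD (70.0 against 45.5 FPKM) go the other way.

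The size of the BIX change differed between the lines for 18 of 45 genes. In L929, 32 genes fell and 0 rose (all genes 22.9% and 18.9%), with a median of -0.61 log2 units. In U2OS, 21 fell and 2 rose, ORC6 and the PRIM1 locus (all genes 18.9% and 21.4%), with a median of -0.31. Called lower in both lines were 16: MCM4, MCM5, MCM6, CDT1, CDC45, POLA2, POLD1, RPA1, FEN1, LIG1, RRM1, RRM2, TK1, UHRF1, E2F1 and CCNE2. The share of all genes called lower in both lines is not given here, so this count is a description only. Both sets of calls also use 1 shared estimate of spread. With each line fitted alone, a choice made after seeing the spread, 27 of 45 fell and 3 rose in U2OS. That U2OS fit called 6619 of 11781 genes in either direction. In L929 alone limma called 0 of 11781 genes. An unadjusted p below 0.05 was found there for 24 of the 45, 24 of them lower, and for 3776 of 11781 genes.

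By the contrast of the 2 coefficients, 15 genes were more negative in L929 and 3 in U2OS, and over all genes these shares were 15.4% and 11.3%. The largest difference was that of RFC5, with 17.8 and 9.74 FPKM with BIX against 41.9 and 35.5 FPKM in mock in L929 (cGAS KO, cGAS WT), and 33.3 and 34.9 FPKM with BIX against 32.3 and 34.8 FPKM in mock in U2OS (ATG5 KD, vector). It was thus far lower in L929 and level in U2OS, a difference of -1.50 (SE 0.227, adjusted p = 0.0196). CCNE1 differed by -1.49, UHRF1 by -1.18, POLD1 by -1.04, RFC2 by -1.02, CDC6 by -0.99 and TK1 by -0.98. POLD2, an accessory subunit of polymerase delta, had 20.0 and 22.1 FPKM with BIX against 43.5 and 52.4 FPKM in mock in L929, and 118 and 95.4 FPKM with BIX against 109.7 and 95.4 FPKM in mock in U2OS. It differed by -1.20 (SE 0.127, adjusted p = 0.0154).

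The 3 genes that fell further in U2OS were CCNE2, with a difference of 0.86 (adjusted p = 0.0254), ORC1, at 0.65 (adjusted p = 0.037), and MCM3, at 0.61 (adjusted p = 0.0446). By role, 4 of 6 clamp and loader genes and 5 of 8 polymerase and primase genes were more negative in L929, PRIM1 among them through the U2OS locus joined with NACA, while limma called 0 of 5 CDC45 and GINS genes (1 at an unadjusted p below 0.05) and 0 of 3 RPA genes (0). The 2 lines differ in species, table and background as well, and these cannot be told apart.

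**Figure D3:**
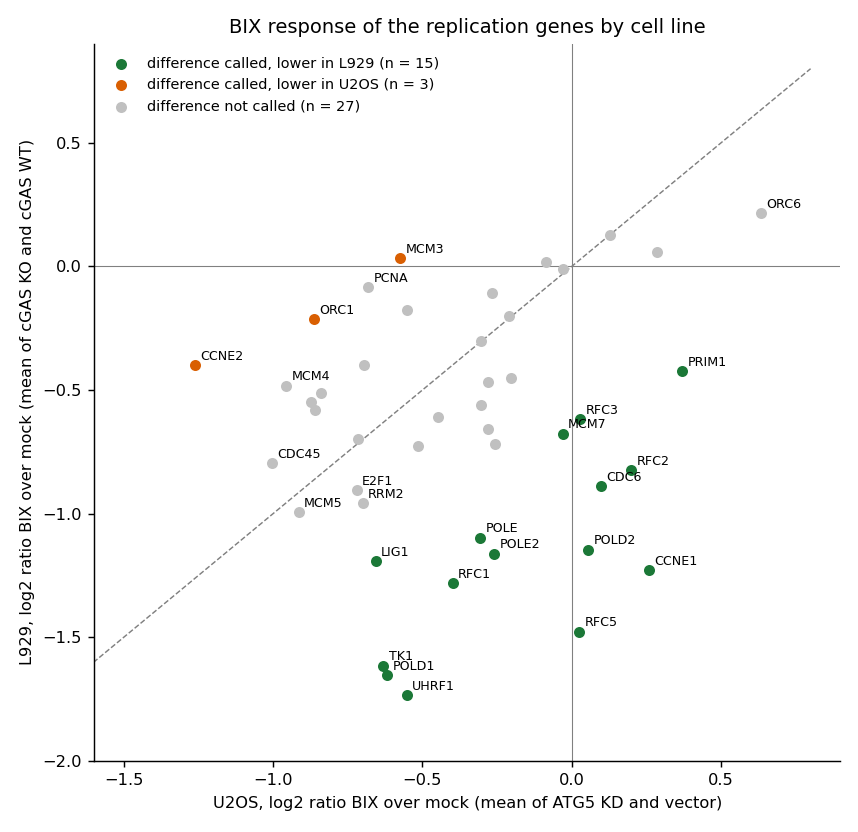
Log2 ratio, BIX over mock, in L929 (vertical axis, mean of cGAS KO and cGAS WT) against U2OS (horizontal axis, mean of ATG5 KD and vector) for the 45 genes; the dashed line marks equal values. The 15 green genes, among them RFC5, CCNE1 and POLD2, lie below the line, the 3 orange genes MCM3, ORC1 and CCNE2 above it, and the 27 grey genes were not called for the difference.

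At 2-fold in a single background, where there is 1 value per group and no test, ATG5 KD had 1 gene lower and 0 higher (all genes 3.68% and 8.03%), and vector had 3 lower and 0 higher (4.28% and 6.35%). The gene in ATG5 KD was CCNE2, and those in vector were CCNE2, CDC45 and MCM5. In L929, cGAS KO had 10 lower and 0 higher (9.87% and 13%), and cGAS WT had 13 lower and 0 higher (6.16% and 7.4%). No gene was 2-fold lower in all 4 backgrounds.

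In SETDB1 KO cells no replication gene passed the test. For the average of both KOs against WT, limma with Benjamini-Hochberg adjustment called 0 of 45, while 3.23% of 12613 genes were called. Of the 45, 2 had an unadjusted p below 0.05, where 1489 of 12613 genes had, and the lowest adjusted p was 0.199. The median was -0.03 log2 units, against -0.01 for all genes. No 95% interval of the 45 went below -0.59 or above 0.41, so a 2-fold change lay outside each of them.

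RPA3 had 33.4 and 39.0 FPKM in KO1 and 37.1 and 30.1 FPKM in KO2, against 40.6 and 48.1 FPKM in WT. All 4 KO libraries were below both WT libraries, and the difference of -0.34 (SE 0.115) did not pass (adjusted p = 0.199). GINS2 had 52.6 and 50.0 FPKM in KO1 and 51.9 and 49.1 FPKM in KO2, against 56.9 and 65.2 FPKM in WT, again without overlap, at -0.26 (SE 0.093, adjusted p = 0.255). On the other side, RFC1 had 33.6 and 32.8 FPKM in KO1 and 31.7 and 33.4 FPKM in KO2, against 30.1 and 28.3 FPKM in WT. These did not overlap either, at 0.16 (SE 0.088, adjusted p = 0.533). RPA1, PRIM1 and GINS1 were also lower in every KO library than in either WT library. How often all genes separate in this way is not given here, so the separation is a description only. The other genes at the ends of the order were MCM7 at -0.21, RPA1 at -0.17, TYMS at 0.16, GINS3 at 0.09 and CCNE2 at 0.06, with adjusted p from 0.525 to 0.934.

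UHRF1, which fell most with BIX, had 41.2 and 34.8 FPKM in KO1 and 37.8 and 36.3 FPKM in KO2, against 42.0 and 37.6 FPKM in WT. The E2F1 values were 35.6 and 29.2 FPKM in KO1 and 35.1 and 27.6 FPKM in KO2, against 36.6 and 27.3 FPKM in WT. In both genes the groups overlapped. Taken singly, KO1 gave 0 calls among the 45 (2.39% of all genes) and KO2 gave 0 (2.39%). An unadjusted p below 0.05 was found for 1 of the 45 and 1204 of 12613 genes in KO1. In KO2 it was found for 2 of the 45 and 1240 genes. Both share the WT libraries. Between KO1 and KO2 limma called 0 of the 45 and 0% of all genes, with 0 of the 45 and 207 genes at an unadjusted p below 0.05.

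**Figure D4:**
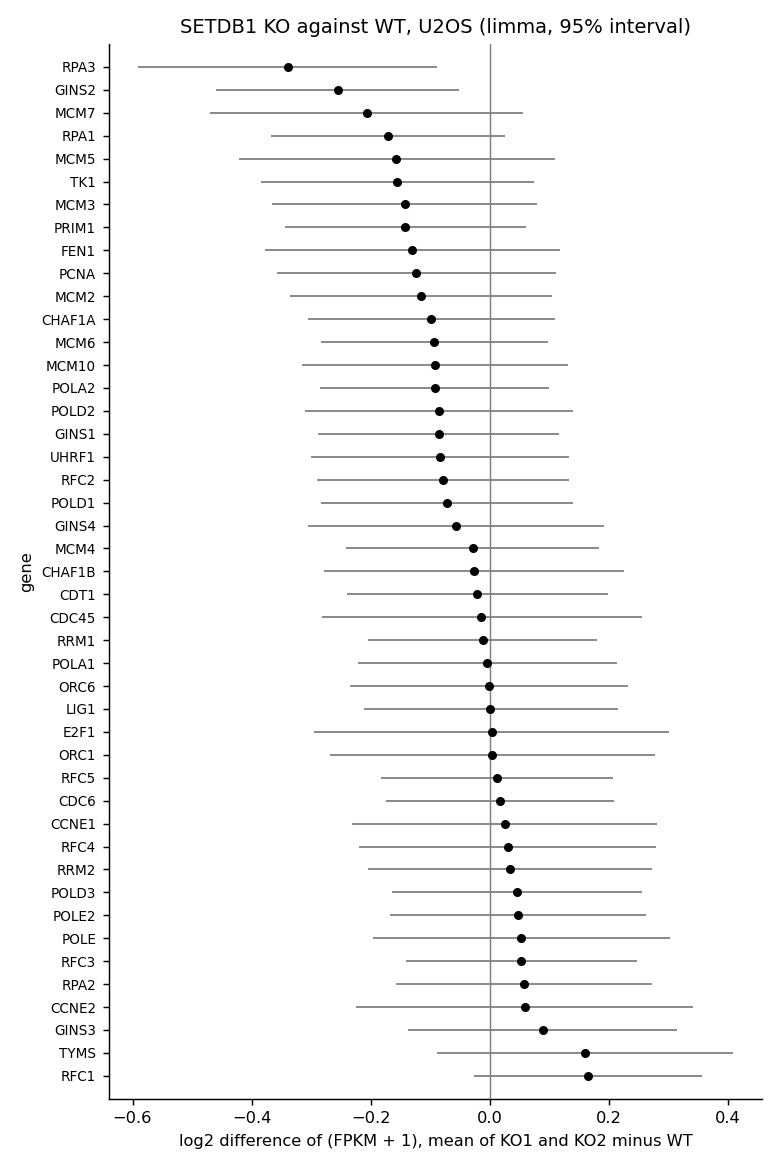
Log2 difference of FPKM + 1, mean of KO1 and KO2 minus WT, for the 45 genes (points, sorted) with the 95% interval of the limma fit (bars; 2 libraries per group). The points run from -0.34 for RPA3 to 0.16 for RFC1, and the bars of 43 genes cross 0.

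Between cGAS KO and cGAS WT in L929, with 1 library each and no test, the genes stood mostly higher in the KO. In mock, 37 of 45 had a log2 ratio above 0 with a median of 0.33, against -0.03 for all genes, and 1 was 2-fold higher and 0 were 2-fold lower (all genes 4.7% and 3.13%). With BIX, 41 of 45 were above 0 with a median of 0.56, against 0.03 for all genes, and 3 were 2-fold higher and 0 lower (6.44% and 5.26%). GINS2, a GINS subunit, had 35.7 FPKM in cGAS KO against 11.8 FPKM in cGAS WT with BIX, and 48.9 against 22.5 FPKM in mock. It was the gene past 2-fold in both treatments.

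POLA1 had 24.3 FPKM in cGAS KO against 7.65 FPKM in cGAS WT with BIX, and 17.5 against 10.5 FPKM in mock. For MCM6 the values were 84.0 FPKM in cGAS KO against 40.9 FPKM in cGAS WT with BIX, and 115.5 against 67.4 FPKM in mock. Both passed 2-fold with BIX only. The 4 genes lower in cGAS KO in both treatments were CCNE1, CCNE2, RRM2 and POLD2, with log2 ratios from -0.62 to -0.14 with BIX and from -0.55 to -0.26 in mock. The BIX ratio itself was less negative in cGAS KO than in cGAS WT for 37 of 45 genes, by a median of 0.25, where 51.4% of all genes were, with a median of 0.01. That difference was not tested, and the cGAS WT library with BIX is the one with fewer reads.

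Between ATG5 KD and vector in U2OS, also without a test, the genes differed little. None was 2-fold lower or higher with BIX (0.465% and 1.41% of all genes) or in mock (0.449% and 0.521%), and the medians were 0.10 with BIX and 0.01 in mock. RPA2 had 31.2 FPKM in ATG5 KD against 20.2 FPKM in vector with BIX, and 35.1 against 27.0 FPKM in mock. The TK1 levels were 106.6 FPKM in ATG5 KD against 70.6 FPKM in vector with BIX, and 153 against 119 FPKM in mock. These 2 were the furthest above vector in both treatments, and POLD3, an accessory subunit of polymerase delta, was the furthest below it, with 10.2 against 14.6 FPKM with BIX and 13.8 against 17.0 FPKM in mock. CCNE1 was below vector in mock, 45.5 against 55.0 FPKM, and above it with BIX, 70.0 against 51.5 FPKM.

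**Figure D5:**
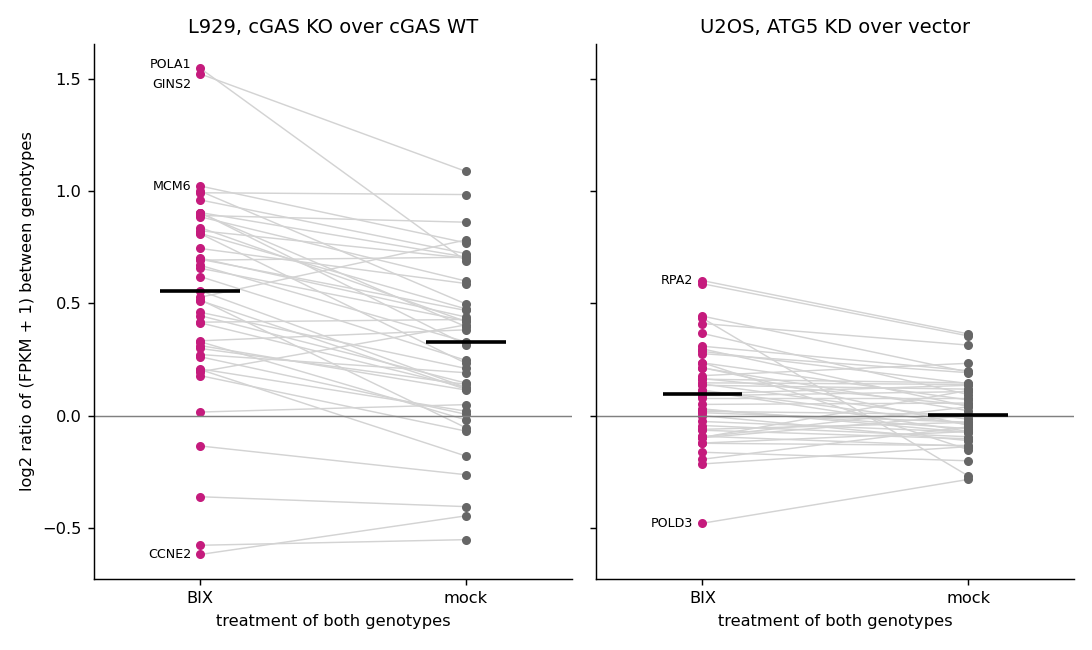
Log2 ratio of FPKM + 1 between genotypes for the 45 genes (points, joined by gene), cGAS KO over cGAS WT in L929 on the left and ATG5 KD over vector in U2OS on the right, each with BIX and in mock; black bars are medians. The L929 medians are 0.56 and 0.33 and the U2OS medians 0.10 and 0.01.

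Other genes of the pathway and of the cell cycle were counted by role, beside the 28.3% of all genes that fell and 26.8% that rose. With BIX, in the mean of both lines, 5 of 10 origin firing genes fell and 0 rose, among them CDC7, the kinase that activates MCM, at -0.95 (SE 0.081). Of 8 fork protection and alternative clamp loader genes 5 fell and 0 rose, with CHTF18 at -0.92 and DSCC1 at -0.91. Of 11 replication-coupled chromatin genes 6 fell and 1 rose, with ASF1B, a histone H3-H4 chaperone, at -1.11 and DNMT1, the maintenance methyltransferase, at -0.62.

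Of 10 other polymerase, Okazaki and topoisomerase genes 6 fell and 2 rose, with RNASEH2C at -0.75 and TOP1 at 0.89. Of 8 other licensing genes 2 fell and 3 rose, shares near those of all genes, and ORC4 had the largest change at 0.91. Of 9 other nucleotide supply genes tested 2 fell, also near the share of all genes, SHMT1 at -0.67 and SLC29A1 at -0.35. Of 17 replication stress and repair genes 11 fell and 1 rose, with FANCD2 at -0.99 and FANCI at -0.89.

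Of the mitosis genes, which act after S phase, 21 of 24 fell and 0 rose, with a median of -0.61 against -0.53 for the 45 replication genes. SPC24, a kinetochore protein, changed by -1.58 (SE 0.079) and CDC20, an activator of the anaphase-promoting complex, by -0.95. In L929 20 of 24 fell and 0 rose (all genes 22.9% and 18.9%), and in U2OS 7 fell and 1 rose (18.9% and 21.4%). The difference from the replication genes was not tested. In U2OS some genes of these lists are read in joined loci, among them BUB1B with PAK6, CCNB2 with RNF111 and CENPE with BDH2. Of the 25 G1/S regulators tested 8 fell and 8 rose, shares near those of all genes. CDKN1A, the inhibitor p21 of cyclin-dependent kinases, had 412, 322, 231 and 437 FPKM with BIX, against 107.8, 107, 36.3 and 106 FPKM in mock. The BIX values lay above every mock value, and it rose by 2.04 (SE 0.125, adjusted p = 0.00267). SKP2, a ubiquitin ligase subunit that targets CDKN1B, fell by 0.84, with 6.48 and 5.92 FPKM with BIX against 21.7 and 20.1 FPKM in mock in U2OS, and 32.0 and 26.8 FPKM with BIX against 32.7 and 28.8 FPKM in mock in L929. In SETDB1 KO limma called 0 of the 123 genes tested in these 9 lists, with the lowest adjusted p, 0.0612, for SPC24. An unadjusted p below 0.05 was found for 6 of the 123 and for 1489 of 12613 genes. CDKN1A there had 99.8 and 98.3 FPKM in KO1 and 102.7 and 103 FPKM in KO2, against 94.3 and 98.8 FPKM in WT.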

How the data were processed

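The authors deposited FPKM per gene, and the values were joined here into 1 table for each of the 3 sets. Per the submitters' processing notes, FastQC, cutadapt, TopHat2 and Cufflinks were used with hg19 (GRCh37) and mm10 (GRCm38); versions, options and strandedness were not given in the sources used here. Without strand, reads of overlapping genes cannot be told apart. Of repeated symbols the entry with the highest mean was kept, and short non-coding RNA genes were left out. FPKM of at least 1 in 2 libraries (in 1 of 2 for single comparisons) was required, and log2(FPKM + 1), which understates changes of low genes, was fitted with limma 3.58.1 (trend) in R 4.3.3, with Benjamini-Hochberg adjustment below 0.05. The 4 BIX ratios were units of 1 fit on symbols shared by both species. The 8 single comparisons counted 2-fold. The scripts were tested on simulated data. Named genes were all called or most changed members by comparison, plus a fixed list. The members and lists were chosen with earlier results of these data known. Alternatives covered the pseudocount, filters, centring, left-out libraries, a replicate block and cell line weights.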

Additional observations from a re-analysis of the deposited data

Results flagged for a closer look

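A test of the difference between the lines (limma, log2 BIX ratio of L929 minus U2OS) marked 18 genes. More negative in L929 were RFC5 (-1.50), CCNE1 (-1.49), POLD2 (-1.20), UHRF1 (-1.18), POLD1 (-1.04), RFC2 (-1.02), CDC6 (-0.99), TK1 (-0.98), POLE2 (-0.90), RFC1 (-0.88), PRIM1 (-0.79), POLE (-0.79), RFC3 (-0.65), MCM7 (-0.65) and LIG1 (-0.54). More negative in U2OS were CCNE2 (0.86), ORC1 (0.65) and MCM3 (0.61). The U2OS value of PRIM1 is a locus shared with NACA.

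The BIX ratio pointed opposite ways in the 2 backgrounds of a line for 5 genes in U2OS and 8 in L929, with 1 value each, and the differences were not tested. How often all genes do so is not given here, so these counts do not set the replication genes apart. Of these 5 and 8 genes, those at least 0.5 log2 units apart are given. CCNE1 differed by 0.70 between ATG5 KD and vector. Between cGAS KO and cGAS WT, POLA1 differed by 0.86, TYMS by 0.57, PCNA by 0.51 and ORC6 by 0.50, each less negative or positive in cGAS KO.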

How the results depend on the processing

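With 1 ratio per background, the BIX calls depend on which backgrounds enter. Leaving out 1 background gave 0 to 39 calls in the mean, 0 to 33 in L929, 0 to 30 in U2OS and 0 to 21 for the difference between the lines, with 0 each time a U2OS background was left out. L929 fitted alone gave 0, and no cell line term gave 17 in the mean, with 2481 of 11781 genes called. Pseudocount, filters, left-out joined loci and weights by line kept the counts in the mean, in each line and for the difference within 1.5 times. Centring on the median called the same number of all genes as the main fit in all 4 contrasts, so it gives no separate check. With 1 background left out, GINS3 in the mean ran from -0.058 without ATG5 KD to 0.017 without vector. CCNE2 in the SETDB1 KO mean ran from -0.187 without WT replicate 2 to 0.304 without WT replicate 1.

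At 1.5-fold in place of 2-fold, BIX against mock counted 16 replication genes in ATG5 KD and 17 in vector. In L929 it counted 19 in cGAS KO and 31 in cGAS WT. Between genotypes the counts were 2 for ATG5 KD over vector with BIX. For cGAS KO over cGAS WT they were 23 with BIX and 12 in mock. These counts join lower and higher genes. The shares of all genes at 1.5-fold are not given here, so the counts do not set the replication genes apart. A pseudocount of 0.1 gave 2 in ATG5 KD, and 5 with BIX and 2 in mock for cGAS KO over cGAS WT; centring gave 2 in mock.

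In the SETDB1 set, 0 replication genes were called under every alternative run, left-out libraries included. The labels do not say that a replicate number marks a shared batch, and the deviations of same-numbered libraries correlated at 0.202, 0.372 and 0.0039, with 2 numbers only. Steps in low FPKM values lined up more within a number (17.8% to 22.9% of genes in a 1% window) than between numbers (6.96% to 8.65%); the replicate block also gave 0 of 45, with 507 genes called in the KO mean against 407. Depth could not be read from the pooled U2OS values, whose low FPKM had no clear steps.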
